A study of Mus musculus with 62 samples.

Results

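The genes described here encode the machinery of oxidative phosphorylation in mouse striatum. They were taken by name from the gene count table of 48795 genes: protein-coding genes whose symbol begins with Nduf, Uqcr, Atp5, Cox4 to Cox8 or mt-, and the 4 genes Sdha to Sdhd. Of 106 such genes, 6 had a mean below 1 CPM (a gene's counts scaled to a common library size) over the 62 libraries and were left out (Cox6b2, Cox7a1, Cox7b2, Cox8b, Cox8c and mt-Nd4l), which left 100. Of these, 88 lie in the nuclear genome and 12 in the mitochondrial genome. By role they are 7 core subunits, 31 accessory subunits and 8 assembly factors of complex I, 4 subunits of complex II, 8 of complex III, 13 nuclear subunits of complex IV, 17 nuclear genes of ATP synthase, and the 12 mitochondrially encoded subunits. Roles follow the gene names, so Ndufa4, now known as a subunit of complex IV, is counted with complex I, and Atp5s, which RefSeq names Dmac2l, with ATP synthase. A further 35 rows with such names were pseudogenes or other gene types and were left out.

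Oxidative phosphorylation passes electrons from NADH (complex I) and succinate (complex II) through complex III to complex IV, which reduces oxygen, and ATP synthase makes ATP from the proton gradient that complexes I, III and IV build. Complex II is encoded by nuclear genes alone, while the others combine nuclear subunits with a few subunits that the mitochondrion transcribes from its own genome as long polycistronic RNAs. The medium spiny neurons of the striatum, which degenerate in Huntington's disease, depend heavily on this pathway, and a respiratory defect has long been studied in that disease.

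The study delivered a zinc finger repressor (ZFP) of mutant huntingtin (mHTT) by adeno-associated virus, and compared it with a control virus called Delta. R6/2 mice, which carry a transgene for an N-terminal piece of human mHTT, and NCAR mice, their controls, received an A virus (A-ZFP or A-Delta) or an N virus (N-ZFP or N-Delta) packaged in PHP.eB at 4 weeks of age, and striatal RNA was taken at 11 weeks. zQ175 mice, which carry an expanded human repeat in their own huntingtin gene, and wild-type (WT) mice received N-ZFP or N-Delta by injection into the striatum at 6 months, and RNA was taken at 12 months. From the zQ175 series there are bulk libraries and libraries labelled neuronal. Each of the 16 groups holds 4 libraries, apart from 2 groups of 3 (A-ZFP in R6/2 mice, and N-ZFP in WT mice in bulk). Every animal carried a virus, so no group shows untreated striatum. The labels give astrocyte as the target cell of the A viruses and neuron as that of the N viruses, but the treatment text of the R6/2 series calls the N viruses astrocytic as well, so the names A and N are used here without a cell type. In the count table, columns of bulk libraries are named Input and those of neuronal libraries N_IP, and the method behind those names, like the promoters of the viruses, is not given in the sources used here. The labels do not say whether each library is 1 animal, so p-values measure the spread between these libraries.

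The starts of 7 nuclear genes are shown because their products span complexes I to IV and ATP synthase and because the genes differ in the sequence motifs that have been linked to coordinated transcription of the pathway. They were picked after their motif matches and fold changes had been seen. RefSeq promoters (build GRCm38.p6, 250 bases before to 50 after the transcription start) matched 72 of the 88 nuclear genes. Each sequence below runs from 120 bases before the start to 30 after it, 5′ to 3′ on the gene's strand, with motif matches on either strand in capitals. The motifs searched were GCGCATGC for NRF1, AAGATGGCG for YY1, CCGGAAG for GABPA and TCAAGGTCA for ERR. Uqcr11 (complex III, chr10:80406792-80406941, minus strand) and Sdhb (complex II, chr4:140961151-140961300, plus strand) each hold an NRF1 and a GABPA match, and Atp5k (ATP synthase, chr5:108434370-108434519, minus strand) holds a pair of overlapping NRF1 matches and a GABPA match. Cox6a1 (complex IV, chr5:115348929-115349078, minus strand) holds a GABPA match. Of the starts listed for Atp5j (ATP synthase), the one shown (chr16:84834947-84835096, minus strand) holds a YY1 and a GABPA match. Ndufb4 (complex I, chr16:37654339-37654488, minus strand) and Sdha (complex II, chr13:74350211-74350360, minus strand) hold none of these letters in the stretch shown.
Uqcr11: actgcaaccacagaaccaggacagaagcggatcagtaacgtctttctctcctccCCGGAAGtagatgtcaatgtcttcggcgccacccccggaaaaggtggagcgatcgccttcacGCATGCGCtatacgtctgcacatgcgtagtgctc
Sdhb: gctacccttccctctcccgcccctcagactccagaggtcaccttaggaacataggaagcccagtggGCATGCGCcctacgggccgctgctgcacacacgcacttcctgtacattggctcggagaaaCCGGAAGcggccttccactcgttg
Atp5k: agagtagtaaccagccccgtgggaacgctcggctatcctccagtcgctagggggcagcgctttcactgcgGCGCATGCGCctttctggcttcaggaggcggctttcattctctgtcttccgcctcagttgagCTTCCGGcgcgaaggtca
Cox6a1: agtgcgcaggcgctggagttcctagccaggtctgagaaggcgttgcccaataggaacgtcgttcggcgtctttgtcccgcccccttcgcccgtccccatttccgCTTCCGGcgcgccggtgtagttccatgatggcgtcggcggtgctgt
Atp5j: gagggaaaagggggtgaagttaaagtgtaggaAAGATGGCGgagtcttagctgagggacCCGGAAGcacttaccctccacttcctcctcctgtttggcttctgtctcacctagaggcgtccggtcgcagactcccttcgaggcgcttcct
Ndufb4: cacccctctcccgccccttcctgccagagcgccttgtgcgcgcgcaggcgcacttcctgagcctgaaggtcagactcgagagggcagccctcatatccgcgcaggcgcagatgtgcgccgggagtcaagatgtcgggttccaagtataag
Sdha: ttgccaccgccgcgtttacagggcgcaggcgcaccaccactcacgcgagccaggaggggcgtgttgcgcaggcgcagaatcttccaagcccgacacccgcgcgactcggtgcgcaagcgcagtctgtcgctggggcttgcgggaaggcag

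Over the whole window of 300 bases, NRF1 letters were present in 12 of the 72 matched members (16.7%) and in 3.93% of the 17491 genes with a RefSeq promoter. YY1 letters were present in 8 members (11.1%) against 2.14% of all genes. GABPA letters were present in 18 members (25.0%) against 12.9%, and ERR letters in 2 members (2.78%) against 0.377%. No match of one motif overlapped a match of another, while 7 were overlapping matches of the same motif on both strands. A match of letters is a description of the sequence and not evidence of binding.

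Nuclear members together made up 1.01% to 1.91% of all counts in the R6/2 series, 0.679% to 0.874% in zQ175 bulk and 0.566% to 1.02% in the neuronal libraries. The 12 mitochondrially encoded members made up 1.80% to 3.27%, 2.36% to 3.07% and 0.0872% to 1.97% of counts in the same sets. Total counts ranged from 49237583 to 101295189 in the R6/2 series, from 8664055 to 11211827 in zQ175 bulk and from 4610476 to 12200813 in the neuronal libraries, so a gene with 0 counts could lie at up to 0.0609, 0.346 and 0.651 CPM in the shallowest library of each set. These limits cover counting error only. Below, levels are CPM on library sizes scaled by the TMM method of edgeR, and fold changes, standard errors (SE) and adjusted p-values come from edgeR's quasi-likelihood test with Benjamini-Hochberg adjustment over every gene tested, with a gene called at an adjusted p under 0.05.

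**Figure D1:**
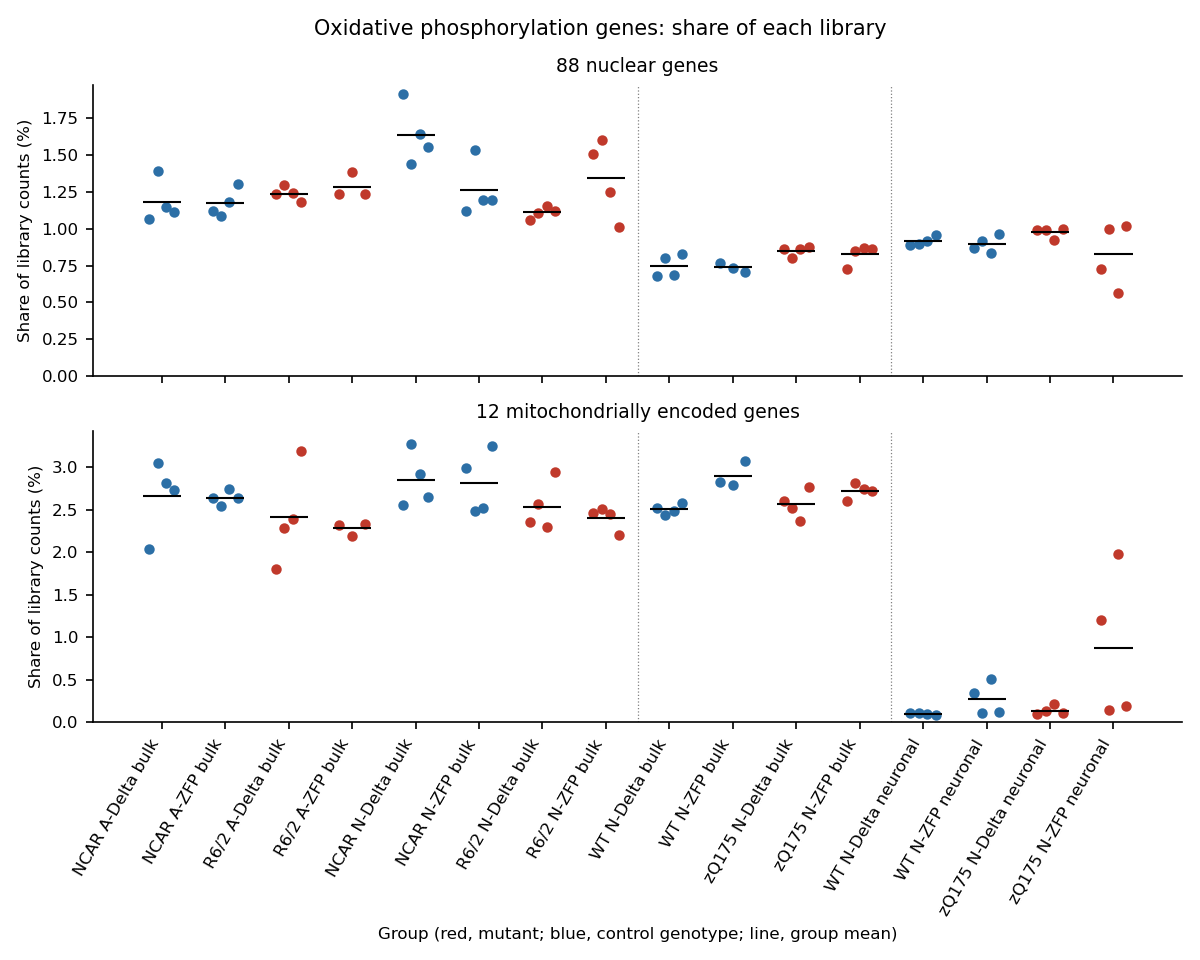
Percentage of each library's total counts in the 88 nuclear members and in the 12 mitochondrially encoded members, 1 point per library, by group, with a line at each group's mean. The nuclear share is highest in the NCAR N-Delta libraries, up to 1.91%, and the mitochondrially encoded share is low in most neuronal libraries, from 0.0872%.

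Levels between genes are given per kilobase of all annotated exons of a gene joined together, which is at least as long as any single transcript and so understates genes with many annotated transcripts. In the NCAR A-Delta group the highest member was mt-Co1, which encodes the catalytic subunit of complex IV, at 14200 CPM per kb, followed by mt-Nd1 of complex I at 3197 CPM per kb and mt-Cytb of complex III at 1260 CPM per kb. The highest nuclear members on that scale were Cox8a at 567 CPM per kb, Cox6a1 at 415 CPM per kb and Cox4i1 at 411 CPM per kb, all subunits of complex IV, and the catalytic ATP synthase genes Atp5a1 and Atp5b stood at 383 and 362 CPM per kb. The alternative isoforms of complex IV were far lower: Cox4i2, the oxygen-sensitive partner of Cox4i1, was at 3.39 CPM per kb, and Cox6a2, the striated muscle partner of Cox6a1, was at 6.23 CPM per kb. The muscle isoforms Cox7a1 and Cox8b did not reach the level filter.

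Several mitochondrially encoded genes had near-identical copies among the annotated nuclear pseudogenes, and how reads that fit both places were counted is not given in the sources used here. At 97% identity over 80% of the transcript, copies were found for 5 of the 12 (mt-Co1, mt-Co2, mt-Co3, mt-Atp6 and mt-Nd3) and for 2 nuclear members (Atp5g2 and Atp5o). Shorter stretches were also near-identical: Atp5g1, at 62.9 CPM, shared 99.8% of bases over 59.5% of its length with Gm10039, at 57.9 CPM, Atp5h, at 79.2 CPM, shared 98.97% over 77.6% with Gm10250, at 107 CPM, and Ndufs5, at 15.5 CPM, shared 99.4% over 60.8% with BC002163, at 30.3 CPM. Ndufs3, at 45.3 CPM, shared 98.6% over 40.4% with Gm12251, at 19.7 CPM. Atp5f1, at 224.6 CPM, shared 98.7% over 52.9% with Gm12231, at 50.9 CPM, and Ndufa12, at 46.4 CPM, shared 99.5% over 36.2% with Gm15920, at 56.3 CPM. Levels of these genes are uncertain for the same reason. mt-Atp6 averaged 8.91 CPM and its chromosome 1 copy Gm10925, identical over 99.6% of the gene, 13.1 CPM. mt-Co2 averaged 27.0 CPM and its copy Gm28661 25.4 CPM, and mt-Co3 averaged 49.1 CPM and its copy Gm28437 33.6 CPM. The levels of mt-Co2, mt-Co3, mt-Atp6 and mt-Nd3 are therefore uncertain, and so is that of mt-Nd6, which lies on the other strand in the mitochondrial genome, because the use of strand in counting is not given. mt-Nd1 and mt-Cytb had no such copy, and the copy of mt-Co1, Gm13340, averaged 93.6 CPM against 14859 CPM for mt-Co1.

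The first question was what the R6/2 genotype did to these genes under a control virus, and the answer differed with the virus. Under A-Delta, 8 of the 88 nuclear members were called, 1 higher and 7 lower in R6/2 than in NCAR, with a median log2 fold change of −0.10 against 0.02 over all 21752 genes tested. Over all genes 13.7% were called higher and 15.2% lower in that comparison, so the share of nuclear members called was below that of all genes. Under N-Delta, 82 of 88 nuclear members were called, 81 lower and 1 higher, with a median of −0.72 against −0.03 over all genes, of which 27.1% were called higher and 28.4% lower. In bulk tissue fewer cells of a type and less RNA per cell cannot be told apart.

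Ndufb4, an accessory subunit of the membrane arm of complex I, had the lowest value of any complex I gene under both viruses. It measured 36.1, 23.0, 28.6 and 34.1 CPM in the NCAR N-Delta libraries and 9.34, 10.3, 12.1 and 11.6 CPM in the R6/2 N-Delta libraries. The groups did not overlap, and the fold was 2.81 lower in R6/2 (log2 −1.49, SE 0.19, adjusted p = 6.11e-07 by edgeR). Under A-Delta it measured 15.3, 24.4, 16.5 and 16.04 CPM in NCAR and 11.4, 12.4, 11.6 and 12.2 CPM in R6/2, again without overlap (log2 −0.60, SE 0.19, adjusted p = 0.0163 by edgeR). Its level in R6/2 was thus near 12 CPM under either virus, while its level in NCAR mice was 30.4 ± 5.90 CPM (SD, n = 4) under N-Delta and 18.04 ± 4.23 CPM (SD, n = 4) under A-Delta.

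All 7 core subunits of complex I were called lower under N-Delta, with a median of −0.62, as were 28 of 31 accessory subunits (median −0.63) and 7 of 8 assembly factors (median −0.48). Ndufs3, a core subunit of the peripheral arm, was called lower under both viruses, at log2 −0.65 (SE 0.09, adjusted p = 1.30e-06 by edgeR) under N-Delta and −0.29 (SE 0.09, adjusted p = 0.0131 by edgeR) under A-Delta. Ndufs1, the largest core subunit, had a small value. It measured 273.9, 241.2, 247.4 and 270 CPM in NCAR N-Delta and 225, 223, 238 and 229 CPM in R6/2 N-Delta. These groups did not overlap (log2 −0.17, SE 0.06, adjusted p = 0.0119 by edgeR), but with offsets for transcript length and GC content the log2 value for Ndufs1 was 2e-04. Ndufb10, of the membrane arm, fell by 0.84 on the log2 scale and Ndufaf5, an assembly factor known in human cells to modify NDUFS7, by 0.999, with adjusted p-values of 9.98e-07 and 1.19e-05 by edgeR. Ndufs7, the core subunit nearest the quinone site, fell by 0.62 (adjusted p = 7.21e-06 by edgeR), Ndufa4 by 0.94 (1.91e-05) and Ndufv1, the NADH-binding core subunit, by 0.34 (0.00169). Ndufaf1, another assembly factor, was the nuclear member called higher under A-Delta (log2 0.31, SE 0.09, adjusted p = 0.0129 by edgeR), and its value under N-Delta was −0.12 (adjusted p = 0.283 by edgeR).

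Complex II split. Sdha, its flavoprotein subunit, measured 240.8, 343, 301 and 294 CPM in NCAR N-Delta and 456, 449, 462 and 452 CPM in R6/2 N-Delta. Every R6/2 library lay above every NCAR library, and Sdha was the only nuclear member called higher in that comparison (log2 0.62, SE 0.10, adjusted p = 1.01e-05 by edgeR). The other 3 genes of the complex were called lower, among them Sdhb, the iron-sulphur subunit (log2 −0.84, SE 0.13, adjusted p = 7.10e-06 by edgeR), and Sdhd, a membrane anchor (log2 −0.85, SE 0.15, adjusted p = 4.70e-05 by edgeR). Under A-Delta, Sdha measured 381, 342, 380 and 404 CPM in NCAR and 485, 425, 434 and 446 CPM in R6/2, which did not overlap but missed the threshold (log2 0.25, SE 0.10, adjusted p = 0.0564 by edgeR).

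All 8 members of complex III were called lower under N-Delta (median −0.82). Uqcrh, the hinge subunit, measured 458, 266, 353 and 386 CPM in NCAR N-Delta and 170, 178, 182 and 193 CPM in R6/2 N-Delta, without overlap (log2 −1.02, SE 0.17, adjusted p = 2.07e-05 by edgeR). Under A-Delta its values overlapped (log2 −0.15, SE 0.17, adjusted p = 0.560 by edgeR). Uqcrc1, a core protein of the complex, fell by 0.59 on the log2 scale under N-Delta (SE 0.10, adjusted p = 1.80e-05 by edgeR). The smallest p-values of the complex were those of Uqcr11 and Uqcr10, small subunits, which fell by 0.93 and 1.05 (adjusted p = 5.17e-06 and 6.19e-06 by edgeR).

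All 13 nuclear members of complex IV were called lower under N-Delta, with the lowest median of any role, −0.88. Cox4i1, the main regulatory subunit, measured 1189, 777, 973 and 946 CPM in NCAR N-Delta and 421, 417, 462 and 448 CPM in R6/2 N-Delta (log2 −1.15, SE 0.17, adjusted p = 4.43e-06 by edgeR), with no overlap. Cox6a2 had the largest fall of all members, from 6.91, 4.68, 5.34 and 5.92 CPM in NCAR N-Delta to 1.93, 2.55, 1.73 and 1.47 CPM in R6/2 N-Delta (log2 −1.57, SE 0.23, adjusted p = 3.88e-06 by edgeR). Under A-Delta, Cox6a2 measured 2.94, 4.36, 4.01 and 5.65 CPM in NCAR and 2.32, 1.43, 2.01 and 1.73 CPM in R6/2, again without overlap (log2 −1.17, SE 0.23, adjusted p = 0.000257 by edgeR). Cox4i2 was likewise called lower by both comparisons, at log2 −1.10 (SE 0.15, adjusted p = 1.49e-06 by edgeR) under N-Delta and −0.80 (SE 0.15, adjusted p = 0.000149 by edgeR) under A-Delta. Among the main isoforms under N-Delta, Cox8a fell by 0.81 on the log2 scale (adjusted p = 3.43e-06 by edgeR), Cox6a1 by 0.83 (1.08e-05) and Cox7a2 by 0.96 (1.36e-05), and Cox7a2l, whose groups overlapped, by 0.84 (0.00978). Cox6a2 and Cox4i2 are minor isoforms, and no other member of complex IV was called under A-Delta by edgeR, while DESeq2 called 3.

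Of the 17 nuclear genes of ATP synthase, 15 were called lower under N-Delta (median −0.79), and the exceptions were Atp5g1 and Atp5g2, which encode the same c-ring protein with different leader peptides (log2 −0.18 and −0.14, adjusted p = 0.143 and 0.435 by edgeR). Atp5g3, the third gene for that protein, fell by 0.72 on the log2 scale (SE 0.12, adjusted p = 1.72e-05 by edgeR). Atp5e, the small epsilon subunit of the central stalk, fell by 1.28 (SE 0.20, adjusted p = 8.26e-06 by edgeR). Atp5mpl and Atp5j2, small membrane-domain subunits with the smallest p-values, fell by 0.92 and 0.95 (adjusted p = 3.48e-06 and 6.22e-06 by edgeR). The catalytic core genes had smaller values: Atp5b measured 2029, 1714, 1711 and 1758 CPM in NCAR N-Delta and 1424, 1439, 1594 and 1476 CPM in R6/2 N-Delta (log2 −0.28, SE 0.08, adjusted p = 0.00268 by edgeR), and Atp5a1 fell by 0.18 (SE 0.06, adjusted p = 0.0118 by edgeR). Under A-Delta, 1 of the 17 was called, Atp5d of the delta subunit, lower by 0.29 (SE 0.10, adjusted p = 0.0218 by edgeR).

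**Figure D2:**
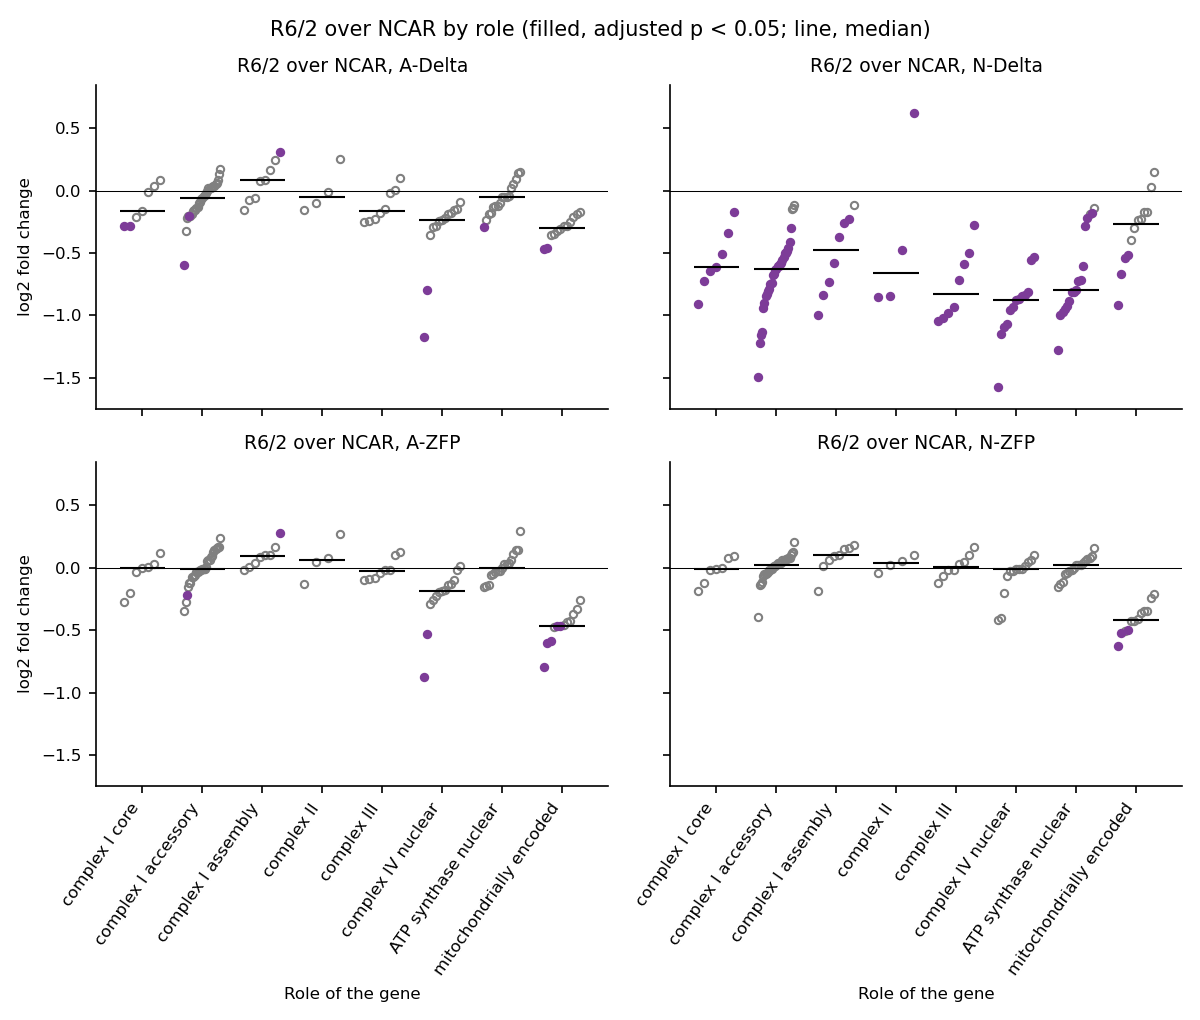
Log2 fold change of R6/2 over NCAR for each member, by role, under each of the 4 viruses, 1 point per gene, with called genes filled and a line at each role's median. Nuclear members scatter about a median of −0.10 under A-Delta, lie below 0 apart from Sdha under N-Delta (median −0.72), and have medians of −0.02 and 0.01 under A-ZFP and N-ZFP.

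The split between viruses came with a difference between the control groups themselves. In NCAR mice, 71 nuclear members were called between N-Delta and A-Delta, 70 higher under N-Delta and 1 (Sdha) lower, with a median of 0.45, where 18.0% of all genes were called higher and 19.0% lower. In R6/2 mice no member was called between N-Delta and A-Delta by edgeR, with 11 at an unadjusted p under 0.05 and 0 called by DESeq2, and 0% of all genes were called. Summed over the 88 nuclear members, the NCAR N-Delta libraries held 18990, 14460, 16440 and 15990 CPM and the NCAR A-Delta libraries 11100, 14530, 12120 and 12050 CPM. The R6/2 N-Delta libraries held 10390, 10600, 11180 and 11120 CPM and the R6/2 A-Delta libraries 11770, 12120, 11750 and 11500 CPM. Leaving out single libraries, the 75 calls in NCAR mice, mitochondrially encoded ones included, fell to 45 without NCAR N-Delta library 1, and the 0 calls in R6/2 mice became 3 without R6/2 A-Delta library 4. The NCAR N-Delta libraries were thus the high set, apart from 1 library just under the NCAR A-Delta maximum. The R6/2 N-Delta range, up to 11180 CPM, overlapped the NCAR A-Delta range, from 11100 CPM, only at the lower end of the latter. Every R6/2 N-Delta library also lay below every R6/2 A-Delta library. Between N-Delta and A-Delta in R6/2 mice, 78 of 88 nuclear members had values below 0 (median −0.15). Some lists of cell type markers moved with the contrast of N-Delta and A-Delta in NCAR mice. All 3 oligodendrocyte precursor markers (median −0.90), 3 of 5 endothelial and mural markers (median −0.82) and 3 of 6 neuron markers (median −0.29) were called lower. All 4 hypothalamic markers were called higher (median 4.20). Their sums were 9.16, 0.782, 1.26 and 55.7 CPM in NCAR N-Delta and 0.675, 1.27, 0.986 and 1.99 CPM in NCAR A-Delta, so libraries 2 and 3 of N-Delta lay within the A-Delta range. Of 9 striatal projection neuron markers 1 was called lower, and of 6 oligodendrocyte markers 0 were called. Among 7 astrocyte and 5 microglia markers, 1 of each was higher and 1 lower. The part of these lists in the members' values was not tested.

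Tested directly, the R6/2 effect under N-Delta minus that under A-Delta was called in 69 nuclear members, all lower, where 11.6% of all genes were called lower. That count did not withstand the loss of single libraries: it was 0 without NCAR A-Delta library 1, NCAR N-Delta library 1, R6/2 A-Delta library 2 or R6/2 N-Delta library 1. By contrast the 86 members called under N-Delta, nuclear and mitochondrially encoded together, ranged from 84 to 87 when each library was left out in turn. The 10 members called under A-Delta fell to 5 without NCAR A-Delta library 2 or R6/2 A-Delta library 1 and rose to 19 without R6/2 A-Delta library 4.

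The length of transcripts moved with these results. For each library, Spearman's rho was computed over protein-coding genes between median transcript length and the gene's deviation from its mean log2 CPM, so that a negative index means that short transcripts were relatively abundant. The index averaged −0.22 in NCAR N-Delta (−0.28 to −0.17, n = 4) and 0.14 in R6/2 N-Delta (0.11 to 0.20, n = 4), which did not overlap, and 0.09 in NCAR A-Delta (−0.13 to 0.19, n = 4) and 0.05 in R6/2 A-Delta (−0.0019 to 0.09, n = 4), which did. Members are short, with a median transcript of 631 bases, and under N-Delta the shorter 44 nuclear members had a median log2 fold change of −0.84 and the longer 44 of −0.60 (Spearman's rho 0.30 over 88 genes, which share libraries). Ribosomal protein genes were also lower under N-Delta, where 28.4% of all genes were called lower. Of 90 cytosolic ones tested 78 were called lower (median −0.75), and of 78 mitochondrial ones 67 (median −0.53). Their transcript lengths are not given here, and the part of length in these values was not tested.

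With the index as a covariate, 55 members were called under N-Delta (54 lower) and 44 under A-Delta (41 lower), while none was called in the N-Delta over A-Delta comparison in NCAR or in the difference between viruses. The index of NCAR N-Delta (−0.28 to −0.17) overlapped neither that of R6/2 N-Delta (0.11 to 0.20) nor that of NCAR A-Delta (−0.13 to 0.19). In those contrasts the covariate cannot be told apart from the group, so no conclusion is drawn from the change in counts. With offsets for length and GC content, 78 members were called under N-Delta (75 lower), 13 under A-Delta (11 lower), and 62 in the difference between viruses (58 lower). Shares of all genes called with the covariate or the offsets are not given here. RNA quality was not given in the sources used here, and its part in the index was not tested.

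**Figure D3:**
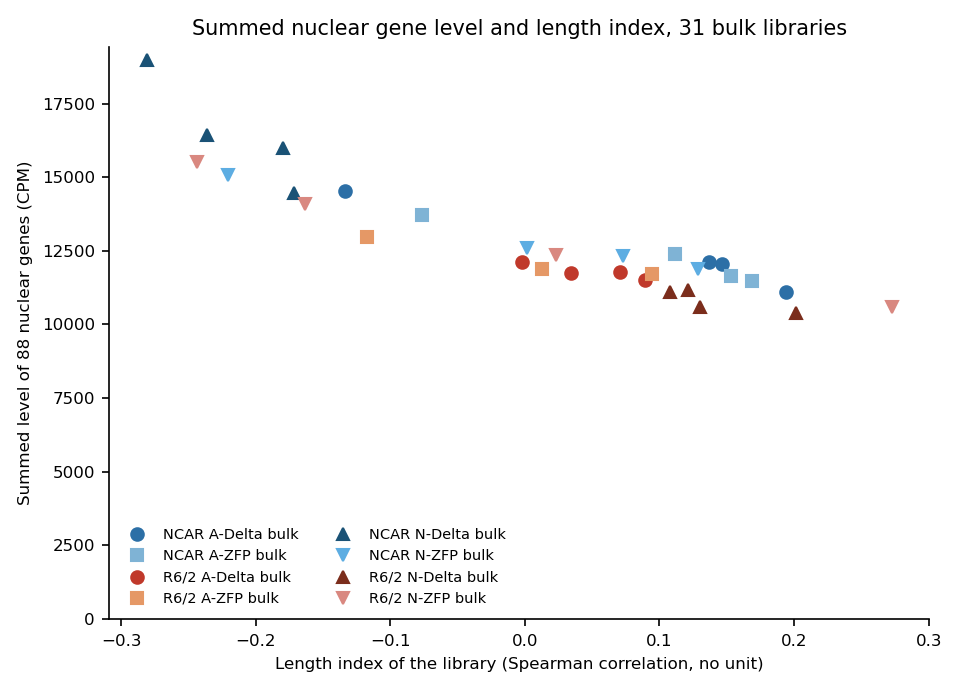
Summed level of the 88 nuclear members (CPM) against the transcript length index of each of the 31 libraries of the R6/2 series, marked by group. Libraries with a negative index, among them the 4 of NCAR N-Delta (−0.28 to −0.17), have the higher summed levels, up to 18990 CPM.

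Markers of cell types also moved. Of 9 striatal projection neuron markers, 8 were called lower in R6/2 under A-Delta (median −1.68) and 6 under N-Delta (median −1.11). Their summed level was 3391, 5234, 3825 and 3654 CPM in NCAR N-Delta and 2433, 2123, 1977 and 2085 CPM in R6/2 N-Delta, without overlap. A list of 4 hypothalamic markers summed to 9.16, 0.782, 1.26 and 55.7 CPM in the NCAR N-Delta libraries and to between 0.0758 and 0.121 CPM in the R6/2 N-Delta libraries. Under N-Delta all 3 oligodendrocyte precursor markers (median 1.30) and 3 of 5 endothelial and mural markers (median 1.01) were called higher in R6/2. Called lower were 3 of 6 neuron (median −0.32), 3 of 7 astrocyte (median −0.23) and 3 of 6 oligodendrocyte markers (median −0.28). Of 5 microglia markers 1 was called higher and 1 lower (median 0.17). Under A-Delta all 6 neuron (median −0.59), 4 of 7 astrocyte (median −0.30) and 3 of 6 oligodendrocyte markers (median −0.45) were called lower. Called there as well were 1 of 5 microglia markers, lower (median −0.01), and 1 of 5 endothelial and mural markers, higher (median 0.03). Of 3 oligodendrocyte precursor (median 0.11) and 4 hypothalamic markers (median −3.30) 0 were called under A-Delta. The part of these shifts in the members' values was not tested.

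The wider pathway showed smaller shifts under N-Delta. Of 18 genes of the tricarboxylic acid cycle and pyruvate entry, which supply the electrons, 11 were called lower and 2 higher (median −0.23). Of 11 carriers and partner proteins such as cytochrome c and the ADP/ATP translocases, 9 were lower and 1 higher (median −0.40). Of 35 assembly factors that the name rule does not cover, 21 were lower and 1 higher (median −0.33), and of 24 genes of protein import tested, 18 were lower and 2 higher (median −0.49). Among 21 regulators of mitochondrial genes, such as the coactivator Ppargc1a and the mitochondrial transcription factor Tfam, 8 were higher and 7 lower (median 0.21), and of 16 glycolytic genes 4 were higher and 9 lower (median −0.38). Under A-Delta the medians of these 6 lists lay between −0.08 and 0.07.

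The promoter motifs were set beside the size of change, and no test compared the sets. Under N-Delta the 32 matched members with any of the 4 motifs had a median log2 fold change of −0.77 and the 40 without one −0.69. The 12 with NRF1 letters and the 18 with GABPA letters each had a median of −0.84, and the 8 with YY1 letters −0.60. Of the starts shown above, Uqcr11, Sdhb and Atp5k, with NRF1 and GABPA letters, were at −0.93, −0.84 and −0.97. Cox6a1, which holds both over the whole window, was at −0.83, and Atp5j, with YY1 and GABPA letters, at −0.22. Among the starts without a match Ndufb4 was at −1.49 and Sdha at 0.62.

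The repressor was compared with its control virus next. A-ZFP against A-Delta gave no called member in R6/2 (1 at an unadjusted p under 0.05 by edgeR, 0 called by DESeq2) or in NCAR mice (0 at an unadjusted p under 0.05, 0 called by DESeq2), where 0.0322% and 0.0184% of all genes were called. The medians over nuclear members were 0.06 and −0.02, and the difference between the genotypes in the A-ZFP effect was called in no member by edgeR (0 at an unadjusted p under 0.05, 0 by DESeq2) and in 0% of all genes. Under A-ZFP the R6/2 genotype left 4 of 88 nuclear members called, 1 higher (Ndufaf1) and 3 lower (Cox6a2, Cox4i2 and Ndufa5), with a median of −0.02, where 10.2% of all genes were called higher and 12.0% lower. Cox6a2 measured 4.58, 4.70, 4.81 and 3.45 CPM in NCAR A-ZFP and 3.60, 2.20 and 1.38 CPM in R6/2 A-ZFP, which overlap (log2 −0.87, SE 0.25, adjusted p = 0.0104 by edgeR). The count of members called under A-ZFP, 9 with the mitochondrially encoded ones, fell to 1 without R6/2 A-ZFP library 2, to 4 without library 3 and to 5 without NCAR A-ZFP library 3, and the length index as a covariate gave 37 (34 lower).

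N-ZFP against N-Delta gave opposite directions in the 2 genotypes. In R6/2 mice 28 of 88 nuclear members were called, all higher under N-ZFP, with a median of 0.33, where 8.11% of all genes were called higher. In NCAR mice 55 nuclear members were called, 54 lower and 1 higher (Sdha), with a median of −0.40, where 11.8% of all genes were called higher and 10.1% lower. The difference between the genotypes in the N-ZFP effect was called in 75 nuclear members, 74 with a higher value in R6/2 and 1 (Sdha) with a lower one, where 17.0% and 15.3% of all genes were called in those directions.

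Ndufb4 measured 24.4, 25.5, 19.3 and 12.7 CPM in R6/2 N-ZFP, each above the R6/2 N-Delta libraries, which reached 12.1 CPM (log2 0.92, SE 0.19, adjusted p = 0.00191 by edgeR). In NCAR N-ZFP it measured 15.5, 26.6, 16.8 and 21.01 CPM, overlapping with NCAR N-Delta (log2 −0.61, SE 0.19, adjusted p = 0.0283 by edgeR). Under N-ZFP the 2 genotypes therefore overlapped for Ndufb4 (log2 0.04, SE 0.19, adjusted p = 0.943 by edgeR). Cox4i1 measured 694, 867, 576 and 440 CPM in R6/2 N-ZFP, overlapping with R6/2 N-Delta through its library 4 (log2 0.56, SE 0.17, adjusted p = 0.0286 by edgeR), and 552, 811, 583 and 642 CPM in NCAR N-ZFP (log2 −0.59 against N-Delta, SE 0.17, adjusted p = 0.0238 by edgeR).

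By complex, 4 of 7 core, 11 of 31 accessory and 2 of 8 assembly genes of complex I were called higher by N-ZFP in R6/2 mice, with 1 of 4 genes of complex II, 2 of 8 of complex III, 4 of 13 of complex IV and 4 of 17 of ATP synthase. Ndufb10 rose by 0.46 on the log2 scale (SE 0.11, adjusted p = 0.00699 by edgeR), Uqcrc1 by 0.39 (SE 0.10, adjusted p = 0.00937 by edgeR), Sdhb by 0.48 (SE 0.13, adjusted p = 0.0149 by edgeR) and Cox6a2 by 0.80 (SE 0.23, adjusted p = 0.0221 by edgeR). Uqcrh measured 267, 314, 209 and 162 CPM in R6/2 N-ZFP, on both sides of the N-Delta libraries (log2 0.40, SE 0.17, adjusted p = 0.111 by edgeR). Sdha measured 339, 333, 402 and 463 CPM in R6/2 N-ZFP, and its value against N-Delta was −0.24 (SE 0.10, adjusted p = 0.0948 by edgeR).

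The R6/2 N-ZFP group was heterogeneous, which bears on these counts. Its summed nuclear levels were 14100, 15500, 12360 and 10610 CPM, and its length index ran from −0.24 to 0.27, the widest range of any group. The 28 calls fell to 3 without R6/2 N-ZFP library 2, to 6 without library 1, and to 10, 11 and 12 without R6/2 N-Delta libraries 1, 2 and 4, and rose to 69 without R6/2 N-ZFP library 4. In NCAR mice the 56 calls, 1 of them mitochondrially encoded, fell to 0 without NCAR N-Delta library 1, NCAR N-ZFP library 1 or NCAR N-ZFP library 3, and to 1 without NCAR N-Delta library 4 or NCAR N-ZFP library 4. Taking the length index as a covariate, the counts were 13 in R6/2 mice (all higher), 0 in NCAR mice and 7 for the difference between genotypes (all higher), and fitted on the compared groups alone they were 1 and 0. The difference between genotypes ranged from 65 to 83 calls when single libraries were left out. Of 9 striatal projection neuron markers, 5 were called higher by N-ZFP in R6/2 mice (median 0.61), and of 90 cytosolic ribosomal protein genes 16 (median 0.35). All 4 hypothalamic markers had values above 0 there (median 3.23), and 1 was called. They summed to 8.59, 1.75, 0.148 and 0.320 CPM in R6/2 N-ZFP libraries 1 to 4, against 0.0758 to 0.121 CPM in R6/2 N-Delta. Of 7 astrocyte markers 1 was called lower (median −0.15). The part of these markers in the members' values was not tested. In NCAR mice 2 of 3 oligodendrocyte precursor markers (median 0.60) and 2 of 5 endothelial and mural markers, with 1 lower (median 0.59), were called higher under N-ZFP.

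Under N-ZFP no nuclear member was called between R6/2 and NCAR by edgeR, with 3 at an unadjusted p under 0.05 and 1 called by DESeq2, and the median was 0.01. Of the 12 mitochondrially encoded members 3 were called lower, where 4.26% of all genes were. These 3 became 0 without NCAR N-ZFP library 4 or R6/2 N-ZFP library 1 or 2, and 1 without NCAR N-ZFP library 1. The comparisons of R6/2 with NCAR under N-ZFP and under N-Delta use separate libraries, and the test of their difference is that of the genotypes in the N-ZFP effect, given above.

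Among the mitochondrially encoded genes, every call between genotypes in bulk striatum was lower in the mutant. Over the 4 R6/2 and the 2 zQ175 bulk genotype comparisons, which share no library, 69 of the 72 log2 fold changes of the 12 genes were below 0. Of the 72, 26 were called lower and 0 higher. Among the 26 were 5 calls of mt-Atp6, 4 of mt-Co3, 3 of mt-Co2, 2 of mt-Nd3 and 1 of mt-Nd6. The levels of these genes are uncertain, as given above. All 4 calls under N-Delta in the R6/2 series were of mt-Atp6, mt-Co2, mt-Co3 and mt-Nd3. By comparison the calls were 2 under A-Delta, 4 under N-Delta, 5 under A-ZFP and 3 under N-ZFP in the R6/2 series, where 15.2%, 28.4%, 12.0% and 4.26% of all genes were called lower, and 3 under N-Delta and 9 under N-ZFP in zQ175 bulk, where 9.48% and 8.13% were. In the R6/2 series the 2 of 12 under A-Delta and the 4 of 12 under N-Delta were near those shares of all genes. The medians over the 12 genes were −0.30 under A-Delta, −0.27 under N-Delta, −0.46 under A-ZFP and −0.42 under N-ZFP in the R6/2 series, and −0.39 under N-Delta and −0.57 under N-ZFP in zQ175 bulk. The 12 genes are cut from long shared precursors, so they are not independent of one another. Single libraries moved these counts. The 2 under A-Delta became 0 without R6/2 A-Delta library 1 or 2, 1 without R6/2 A-Delta library 3 or NCAR A-Delta library 2, 3 or 4, 5 without NCAR A-Delta library 1 and 11 without R6/2 A-Delta library 4. The 5 under A-ZFP became 0 without R6/2 A-ZFP library 2, 3 without library 3 and 2 without NCAR A-ZFP library 3, and the 3 under N-ZFP were the same calls whose loss is given above. In zQ175 bulk the 3 under N-Delta became 1 without zQ175 N-Delta library 1 or 3, 5 without WT N-Delta library 4 and 6 without zQ175 N-Delta library 4, and the 9 under N-ZFP became 4 without WT N-ZFP library 4 and 5 without zQ175 N-ZFP library 4.

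mt-Nd1, a core subunit of complex I with no near-identical annotated copy, was called lower in 4 of the 6 comparisons. It measured 2751, 3289, 2969 and 3227 CPM in NCAR A-Delta and 1758, 1957, 2040 and 3150 CPM in R6/2 A-Delta, where library 4 of R6/2 lay within the NCAR range (log2 −0.46, SE 0.14, adjusted p = 0.0152 by edgeR). It measured 3788, 3256, 3236 and 4331 CPM in NCAR N-ZFP and 2417, 2413, 2546 and 2782 CPM in R6/2 N-ZFP, without overlap (log2 −0.52, SE 0.14, adjusted p = 0.0205 by edgeR). Under N-Delta its values overlapped (log2 −0.17, SE 0.14, adjusted p = 0.305 by edgeR).

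mt-Atp6, a subunit of the proton channel of ATP synthase, was called lower in 5 of the 6, the most of any of the 12, but its low level beside a copy of 13.1 CPM makes it uncertain. mt-Co3 was called in 4, mt-Nd2 and mt-Co2 in 3, mt-Atp8, mt-Nd3 and mt-Cytb in 2 and mt-Nd6 in 1. mt-Co1, mt-Nd4 and mt-Nd5 were called in none. mt-Co1 measured 15970, 24990, 23500 and 23270 CPM in NCAR A-Delta and 13770, 17400, 18130 and 24350 CPM in R6/2 A-Delta, which overlap, and its values over the 6 comparisons ran from −0.33 to 0.06. mt-Cytb, the catalytic subunit of complex III, measured 1123, 1661, 1512 and 1468 CPM in NCAR A-Delta and 785, 988, 1122 and 1707 CPM in R6/2 A-Delta, and its values ran from −0.41 to −0.17.

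**Figure D4:**
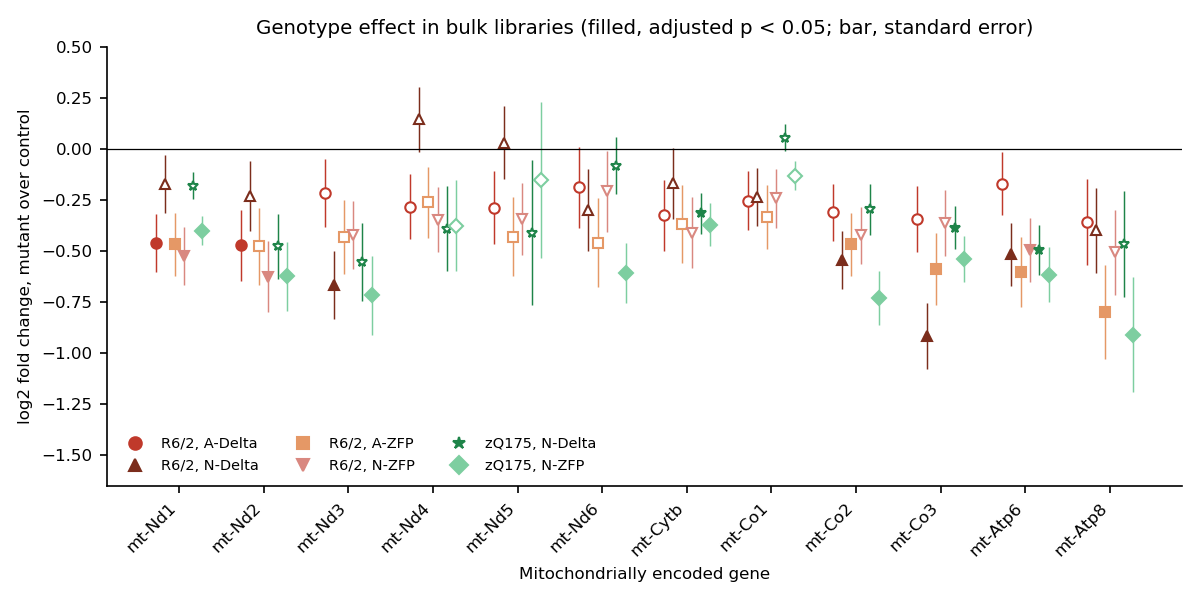
Log2 fold change of the mutant genotype over its control for each of the 12 mitochondrially encoded members in the 6 bulk genotype comparisons, 1 point per gene and comparison, with called genes filled and bars for the standard error. Of 72 values, 69 lie below 0 and 26 are called, all lower, and mt-Co1 lies between −0.33 and 0.06.

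No mitochondrially encoded member was called for an effect of A-ZFP in either genotype or of N-ZFP in R6/2 mice by edgeR or DESeq2, with 1 of 12 at an unadjusted p under 0.05 in each R6/2 comparison and 0 for A-ZFP in NCAR. In NCAR mice 1 was called lower under N-ZFP, mt-Co3, where 10.1% of all genes were, and it was lost without NCAR N-Delta library 1 or 4 or NCAR N-ZFP library 1, 3 or 4. Between N-Delta and A-Delta in NCAR mice 4 were called higher, where 18.0% of all genes were, and 2 without NCAR A-Delta library 1 or NCAR N-Delta library 1. The 4 included mt-Atp6 (log2 0.59, SE 0.16, adjusted p = 0.00567 by edgeR) and mt-Co3 (log2 0.52, SE 0.16, adjusted p = 0.0142 by edgeR). With offsets for length and GC content mt-Nd3 turned from −0.67 to 0.16 for the R6/2 effect under N-Delta, so that value of mt-Nd3 depends on how the short transcripts are scaled.

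In bulk striatum of zQ175 mice few nuclear members were called. Under N-Delta, 1 of 88 nuclear members was called, Atp5g1, higher in zQ175, with a median of 0.08, where 6.44% of all 17114 genes tested were called higher and 9.48% lower. Under N-ZFP, 1 was called, Ndufv3, higher in zQ175, with a median of 0.05, where 4.61% were called higher and 8.13% lower. The share of nuclear members called was in both cases under that of all genes. No test set the zQ175 series against the R6/2 series, which differ in age, route and depth.

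Atp5g1, 1 of the 3 genes for the c subunit of ATP synthase, measured 43.4, 47.2, 44.4 and 50.5 CPM in WT N-Delta and 58.6, 51.0, 57.3 and 57.5 CPM in zQ175 N-Delta, without overlap (log2 0.28, SE 0.08, adjusted p = 0.0159 by edgeR), with the doubt over its copy Gm10039 given above. Ndufv3, an accessory subunit of the peripheral arm of complex I, measured 47.8, 39.3 and 45.8 CPM in WT N-ZFP and 53.4, 55.6, 56.3 and 50.4 CPM in zQ175 N-ZFP, without overlap (log2 0.28, SE 0.08, adjusted p = 0.0144 by edgeR). Sdha measured 316, 340, 329 and 349 CPM in WT N-Delta and 368, 365, 360 and 377 CPM in zQ175 N-Delta, also without overlap, but missed the threshold (log2 0.14, SE 0.05, adjusted p = 0.0523 by edgeR). Cox6a2 was at log2 −0.39 (SE 0.23, adjusted p = 0.265 by edgeR) and Ndufb4 at −0.13 (SE 0.12, adjusted p = 0.522 by edgeR), at levels near 3 and 12 CPM.

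The mitochondrially encoded members were lower in zQ175 bulk, 3 called under N-Delta (mt-Atp6, mt-Co3 and mt-Cytb) and 9 under N-ZFP. For N-ZFP against N-Delta, 11 of the 12 had values above 0 in WT bulk (median 0.26) and 7 of the 12 in zQ175 bulk (median 0.06). mt-Nd1 measured 3778, 3709 and 4263 CPM in WT N-ZFP and 2851, 3010, 3083 and 2936 CPM in zQ175 N-ZFP, without overlap (log2 −0.40, SE 0.07, adjusted p = 0.000374 by edgeR). mt-Atp6 measured 13.95, 14.98, 12.13 and 11.44 CPM in WT N-Delta and 7.60, 9.67, 9.03 and 11.0 CPM in zQ175 N-Delta, without overlap (log2 −0.50, SE 0.12, adjusted p = 0.00694 by edgeR). mt-Cytb measured 2943, 2149, 2729 and 2277 CPM in WT N-Delta and 2035, 2177, 1719 and 2183 CPM in zQ175 N-Delta, which overlap (log2 −0.32, SE 0.10, adjusted p = 0.0384 by edgeR). mt-Co1 was at 0.06 and −0.13 in these comparisons, with adjusted p-values of 0.618 and 0.264 by edgeR.

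The 4 members called under N-Delta, nuclear and mitochondrially encoded together, became 1 without zQ175 N-Delta library 1, 2 without WT N-Delta library 1 or zQ175 N-Delta library 3, 7 without WT N-Delta library 2 and 19 without WT N-Delta library 4. The 10 called under N-ZFP became 5 without WT N-ZFP library 4, 6 without WT N-ZFP library 3 or zQ175 N-ZFP library 4, and 15 without zQ175 N-ZFP library 1. All 9 striatal projection neuron markers were called lower in zQ175 under N-ZFP (median −1.09) and 8 of 9 under N-Delta (median −1.02), and their part in the members' values was not tested.

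N-ZFP against N-Delta gave no called member in zQ175 bulk (5 at an unadjusted p under 0.05 by edgeR, 0 called by DESeq2) or in WT bulk (8 at an unadjusted p under 0.05 by edgeR, 1 called by DESeq2), and 0% of all genes were called in each. The medians over nuclear members were −0.04 and −0.0053, and those over mitochondrially encoded members 0.06 and 0.26. The member called by DESeq2 in WT bulk was mt-Nd1, higher under N-ZFP without overlap (log2 0.375, SE 0.07, adjusted p = 0.141 by edgeR and 0.0023 by DESeq2). The difference between genotypes in the N-ZFP effect was likewise called in no member by edgeR (5 at an unadjusted p under 0.05, 0 by DESeq2) and in 0% of all genes.

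The neuronal libraries were compared with bulk libraries of the same WT N-Delta group. Input and N_IP columns carry the same numbers, which may mark the same tissue, though the labels do not say so, and with the number as a block 59 members were called against 56. Of the 88 nuclear members 36 were called higher in neuronal RNA and 8 lower (median 0.25), and all 12 mitochondrially encoded members lower (median −4.23), where 26.2% of the 17702 genes tested were called higher and 29.5% lower. Summed over the 12 genes, WT N-Delta bulk libraries held 26640, 24490, 25740 and 26290 CPM, and over the 10 that passed the count filter of the neuronal fit, neuronal libraries held 1162, 1078, 1046 and 903 CPM. mt-Co1 measured 16830, 17290, 16380 and 18960 CPM in bulk and 562, 567, 581 and 539 CPM in the neuronal libraries (log2 −4.89, SE 0.49, adjusted p = 1.17e-08 by edgeR).

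By role, the core subunits of complex I and the members of complex III had the highest medians. Of the 7 core subunits of complex I, 6 were called higher (median 0.49), of the 8 of complex III 6 (median 0.40), of the 4 of complex II 2 (median 0.32) and of the 17 of ATP synthase 8, with 2 lower (median 0.26). Ndufs1 measured 142, 153, 140 and 159 CPM in bulk and 213, 213, 218 and 216 CPM in the neuronal libraries, without overlap (levels are scaled within each set, folds in a fit of both; log2 0.59, SE 0.10, adjusted p = 1.88e-05 by edgeR). Atp5b measured 834, 977, 829 and 1033 CPM in bulk and 1356, 1363, 1394 and 1407 CPM in the neuronal libraries (log2 0.65, SE 0.16, adjusted p = 0.00111 by edgeR), and Sdha 316, 340, 329 and 349 CPM in bulk and 456, 470, 476 and 479 CPM in the neuronal libraries (log2 0.55, SE 0.13, adjusted p = 0.000653 by edgeR). The groups did not overlap for either gene.

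Of the 31 accessory subunits of complex I, 10 were called higher and 2 lower (median 0.23), of its 8 assembly factors 2 were higher (median 0.12), and of the 13 nuclear members of complex IV 2 were higher and 4 lower (median 0.04). No test compared the roles with each other. Cox5a rose by 0.69 (SE 0.18, adjusted p = 0.00179 by edgeR), while Cox4i1 overlapped, at 296, 342, 307 and 365 CPM in bulk and 311, 318, 316 and 344 CPM in the neuronal libraries (log2 0.04, SE 0.09, adjusted p = 0.733 by edgeR). Cox7a2l, a subunit involved in joining complexes III and IV, measured 106, 111, 103 and 125 CPM in bulk and 54.9, 51.8, 57.7 and 58.4 CPM in the neuronal libraries, without overlap (log2 −0.94, SE 0.08, adjusted p = 1.73e-10 by edgeR). Among nuclear members the lowest values were those of Cox4i2 (log2 −3.0, SE 0.52, adjusted p = 2.36e-05 by edgeR) and Ndufa4l2, a homologue of Ndufa4 (log2 −2.43, SE 0.45, adjusted p = 5.61e-05 by edgeR), which in bulk averaged 1.81 and 1.74 CPM. Ndufa4 itself was called higher by 0.59 (adjusted p = 0.00666 by edgeR).

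**Figure D5:**
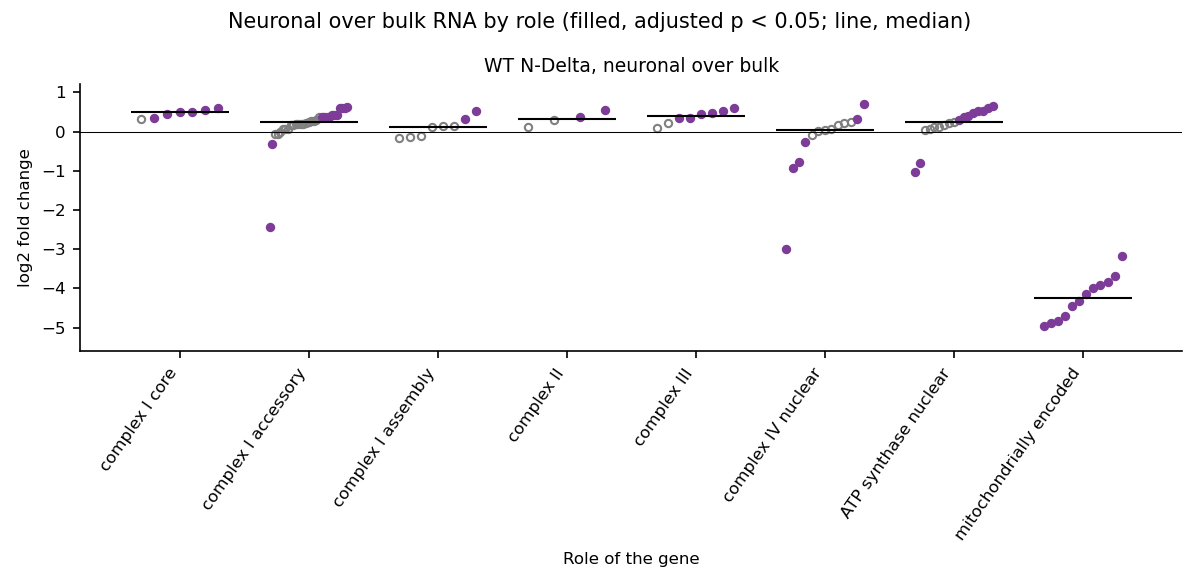
Log2 fold change of neuronal over bulk libraries in WT N-Delta mice for each member, by role, 1 point per gene, with called genes filled and a line at each role's median. Most nuclear members lie a little above 0 (median 0.25), Cox4i2 and Ndufa4l2 lie at −3.0 and −2.43, and all 12 mitochondrially encoded members lie between −4.95 and −3.16.

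The markers of the labelled cell type moved with this contrast: all 6 neuron markers and 8 of 9 striatal projection neuron markers were called higher in the neuronal libraries, 6 of 7 astrocyte, all 6 oligodendrocyte and all 5 microglia markers lower; summed microglia markers were at 4.28 to 7.88 CPM and summed astrocyte markers at 1622 to 2637 CPM. Of 18 genes of the tricarboxylic acid cycle and pyruvate entry 13 were called higher and 2 lower (median 0.45), of 16 glycolytic genes 13 higher and 2 lower (median 0.54), and of 87 cytosolic ribosomal protein genes 1 higher and 79 lower (median −1.05). Whether the low mitochondrial RNA reflects the cells or the way neuronal RNA was obtained cannot be told apart here. Leaving out single libraries gave 50 to 61 called members against 56. With offsets for length and GC content the count was 85, 68 higher and 17 lower.

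In the neuronal libraries 96 of the 100 members passed the count filter, all but Cox4i2, Ndufa4l2, mt-Nd3 and mt-Nd6. Under N-Delta, 1 of the 86 nuclear members was called between zQ175 and WT, Ndufs3, where 6.01% of the 15815 genes tested were called lower. Ndufs3 measured 48.6, 45.7, 48.8 and 54.8 CPM in WT N-Delta and 37.7, 42.4, 38.8 and 37.9 CPM in zQ175 N-Delta, without overlap (log2 −0.33, SE 0.09, adjusted p = 0.0297 by edgeR). The doubt over its copy Gm12251 is given above. The median over nuclear members was −0.03, while 8 of 9 striatal projection neuron markers were called lower (median −1.06). The call was lost without WT N-Delta library 1, 3 or 4 or zQ175 N-Delta library 1, 3 or 4, and the count was 8 (2 higher, 6 lower) without the 4 N-ZFP libraries described next, a fit chosen after seeing the data. The zQ175 effect in neuronal minus that in bulk libraries was called in no member by edgeR (0 at an unadjusted p under 0.05, 0 by DESeq2) and in 0% of all genes.

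In the neuronal N-ZFP groups, 4 libraries (numbers 1 and 3 in each genotype) held more mitochondrially encoded RNA than the rest. The summed level of the 10 tested genes was 3517, 1160, 5183 and 1246 CPM in WT N-ZFP and 11790, 1366, 18360 and 1858 CPM in zQ175 N-ZFP, against 898 to 2033 CPM in zQ175 N-Delta. The nuclear members ran the other way in zQ175 N-ZFP, at 7159, 9804, 5266 and 9810 CPM, lowest in libraries 1 and 3. Microglia markers summed to 31.5, 6.93, 56.9 and 6.51 CPM and choroid plexus markers to 253, 69.9, 299 and 30.04 CPM in the same zQ175 N-ZFP libraries, highest in the libraries of high mitochondrial RNA. Of the other lists, some also rose and some did not. For N-ZFP against N-Delta in zQ175, all 3 oligodendrocyte precursor markers had values above 0 (median 0.86). So did 3 of 4 endothelial and mural markers tested (median 0.66) and 78 of 85 cytosolic ribosomal protein genes tested (median 0.49). By contrast, 6 of 7 astrocyte markers had values below 0 (median −0.21). Of 6 oligodendrocyte markers 3 had values above 0 and 3 below (median −0.0091). The part of RNA from other cells in the members' values was not tested.

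With these libraries in the fit, no member was called between zQ175 and WT under N-ZFP by edgeR (18 at an unadjusted p under 0.05, 1 called by DESeq2), where 8.98% of all genes were called, and the medians were −0.19 for nuclear and 1.51 for mitochondrially encoded members. Same-numbered libraries deviated together in this comparison, and with the replicate number as a block 1 member was called. The count rose to 14 without zQ175 N-ZFP library 2, to 8 without library 4, and a covariate for the length index gave 74 (10 higher, 64 lower). The share of all genes called with that covariate is not given here. In zQ175 N-ZFP the index was 0.033 and 0.043 in libraries 1 and 3, and −0.046 and −0.030 in libraries 2 and 4. In that group the covariate cannot be told apart from the split in mitochondrial RNA, so no conclusion is drawn from the 74. N-ZFP against N-Delta gave no called member in zQ175 (26 at an unadjusted p under 0.05 by edgeR, 13 called by DESeq2) where 0.329% of all genes were called, and none in WT (9 at an unadjusted p under 0.05, 0 by DESeq2) where 0.139% were. In zQ175 the count rose to 32 without N-ZFP library 2 and to 26 without library 4. Their difference was called in no member by edgeR (2 at an unadjusted p under 0.05, 0 by DESeq2) and in 0% of all genes. Without the 4 libraries the median over mitochondrially encoded members was 0.46 for the genotype under N-ZFP and 0.32 for N-ZFP in zQ175, against 1.51 and 3.03 with them.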

How the data were processed

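Striatal RNA was measured in 62 libraries, 31 of the R6/2 series, 15 of zQ175 bulk and 16 labelled neuronal. Total RNA was extracted with RNeasy kits and made into TruSeq stranded total RNA libraries, per the labels' protocols. The deposited table holds the authors' whole-number counts per gene, unnormalized. STAR, HTSeq and mm10 are named in the submitters' processing notes, and their versions, the strand setting and the treatment of reads with several positions are not given in the sources used here. The 48795 gene IDs were given symbols, types and transcript lengths from GENCODE, with 48349 matched and 446 not. Every column matched a sample, and no libraries held identical values.

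Groups and replicate numbers came from the sample titles. Counts were tested with edgeR 4.0.16 in R 4.3.3 (TMM scaling, filterByExpr by group, robust quasi-likelihood fit) in 4 fits, of the R6/2 series, zQ175 bulk, neuronal libraries, and WT and zQ175 libraries together, giving 25 comparisons, with Benjamini-Hochberg adjustment over all genes tested and a threshold of 0.05. Log2 CPM for the length index used a prior count of 2. Motifs were searched as exact letters on both strands. The procedure was tested on simulated data. Alternatives were DESeq2 1.42.0, its size factors in edgeR, no filter on low counts, a covariate for the length index, offsets for length and GC content (splines of 5 degrees of freedom), mitochondrial rows left out, the compared groups alone, the replicate number as a block, and each library left out in turn.

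Same-numbered libraries deviated together in 1 comparison, zQ175 over WT under N-ZFP in neuronal libraries, where the correlation of same-numbered deviations averaged 0.48 (0.23 to 0.69) against −0.16 for other pairs. That pairing rests on the data and not on the labels, and the block value stands beside its result.

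Genes named were, by role, up to 2 called in each direction with the smallest p, the mitochondrially encoded genes, isoform pairs and a fixed list of subunits. The members and lists were chosen with earlier results of these data known. Precision is limited by the number of libraries.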

Additional observations from a re-analysis of the deposited data

Results flagged for a closer look

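In 11 of 196 checked values by group, 1 library stood far from the others of its group. Chance alone gives this in about 1 in 20 groups. In bulk striatum, zQ175 N-ZFP library 1 was the low one in 3 of them: its nuclear members summed to 7198 CPM against 8280 to 8375 CPM in the other libraries, Atp5b measured 898 CPM against 1057 to 1071 CPM, and Cox6a2 1.359 CPM against 2.543 to 2.769 CPM. Ndufb4 was high in NCAR A-Delta library 2, at 24.35 CPM against 15.3 to 16.47 CPM, and Atp5b was high in NCAR N-Delta library 1, at 2029 CPM against 1711 to 1758 CPM. Cox6a2 was low in NCAR A-ZFP library 4, at 3.446 CPM against 4.583 to 4.81 CPM, and Atp5g1 in zQ175 N-Delta library 2, at 51.04 CPM against 57.32 to 58.6 CPM.

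In the neuronal libraries, Uqcrh and Atp5b were low in zQ175 N-Delta library 3, at 103 CPM against 120.3 to 123.2 CPM and 1345 CPM against 1479 to 1506 CPM. Ndufb4 was low in WT N-Delta library 2, at 9.796 CPM against 11.81 to 12.18 CPM, and Sdha in WT N-ZFP library 3, at 406.9 CPM against 463.4 to 473.7 CPM.

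A pair of tested differences between groups passed the threshold in many members by edgeR's quasi-likelihood test. The N-ZFP effect was higher in R6/2 than in NCAR mice in 74 members and lower in 1, where 17.0% and 15.3% of all genes were called in those directions. The R6/2 effect was lower under N-Delta than under A-Delta in 69 members, where 11.6% of all genes were called lower. The 69 became 0 without NCAR A-Delta library 1, NCAR N-Delta library 1, R6/2 A-Delta library 2 or R6/2 N-Delta library 1. Both counts were far lower with the length index as a covariate, as given below.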

How the results depend on the processing

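Counts below are members called. The 86 calls for R6/2 over NCAR under N-Delta kept within 84 to 87 when each library was left out, and the length index as a covariate gave 55. That covariate gave 44 under A-Delta, 37 under A-ZFP, 6 under N-ZFP, 13 for N-ZFP in R6/2, 0 for N-ZFP in NCAR, 0 for N-Delta over A-Delta in NCAR, 0 and 7 for the differences in the R6/2 and N-ZFP effects, 17 for zQ175 over WT under N-ZFP and 3 for N-ZFP in WT in bulk, and 9 and 74 for zQ175 over WT in neuronal libraries under N-Delta and N-ZFP. Length and GC offsets gave 5 for R6/2 under N-ZFP, 10 for zQ175 under N-Delta in bulk and 85 for neuronal over bulk. DESeq2 gave 5 for R6/2 under N-ZFP, 1 for N-ZFP in WT bulk, 1 for zQ175 under N-ZFP in neuronal libraries and 13 for N-ZFP in zQ175 neuronal libraries. No filter on low counts gave 18 for N-ZFP in R6/2, 1 for N-ZFP in WT bulk and 0 for zQ175 under N-Delta in neuronal libraries. The compared groups alone gave 15 for R6/2 under A-ZFP, 1 and 0 for N-ZFP in R6/2 and NCAR, and 6 for zQ175 under N-Delta in neuronal libraries. Without the 4 neuronal N-ZFP libraries of high mitochondrial share, a choice made after seeing the data, that last count was 8. Shares of all genes called under these settings are not given here, and the cause of these changes was not tested. For R6/2 over NCAR under N-Delta and for N-Delta over A-Delta in NCAR, the length index did not overlap between the groups. There the covariate cannot be told apart from the group.

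With the replicate number as a block, zQ175 over WT under N-ZFP in neuronal libraries gave 1 call and N-ZFP in zQ175 neuronal libraries 10, and no other count moved by over 1.5 times. In the latter, not all same-numbered libraries deviated together, so those share only a number.

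Leaving out single libraries gave 5 to 19 for R6/2 under A-Delta, 1 to 9 under A-ZFP, 0 to 3 under N-ZFP, 3 to 69 for N-ZFP in R6/2, 0 to 70 for N-ZFP in NCAR, 45 to 81 and 0 to 3 for N-Delta over A-Delta in NCAR and R6/2, 0 to 78 for the difference in the R6/2 effect, 65 to 83 for that in the N-ZFP effect, 1 to 19 and 5 to 15 for zQ175 in bulk under N-Delta and N-ZFP, 0 to 1 and 0 to 14 in neuronal libraries, 0 to 32 for N-ZFP in zQ175 neuronal libraries and 50 to 61 for neuronal over bulk.

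Length and GC offsets turned the sign of 6 values: mt-Nd3 at 0.16 and Ndufs1 at 2e-04 for R6/2 under N-Delta, Ndufs1 at 0.0076 for N-ZFP in NCAR, and mt-Atp8 at −0.52, Ndufs1 at −0.045 and mt-Nd3 at −0.34 for N-Delta over A-Delta in NCAR. At a floor of up to 0.651 CPM in the neuronal libraries, Cox4i2 at 0.212 CPM there was within the limit that a count of 0 allows.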
